A study of Mus musculus with 6 samples.

Results

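The genes described here were 30 genes of glycolysis, lactate and glycogen metabolism, taken by symbol from a count table of 25006 mouse genes. All 30 symbols matched 1 row each, and all 30 passed the filter on low counts that left 12847 genes for testing. The list held 1 glucose transporter, 14 glycolysis enzymes, 2 regulators of fructose 2,6-bisphosphate, 4 genes of lactate interconversion and export, 5 genes of pyruvate entry to the citric acid cycle, 2 genes of the pentose phosphate pathway and 2 genes of glycogen synthesis. The libraries came from sheets of mouse corneal epithelium, the stratified layer that covers the front of the eye, and total RNA was sequenced on an Illumina HiSeq instrument. Of the 6 libraries, 3 were from wild type mice, 3 were labelled EphA2 null, and no treatment was named for either. EphA2 is a receptor tyrosine kinase for membrane-bound ephrin ligands, and the series asked how it acts on cilia, autophagy and the architecture of this epithelium. The sources used here give neither the strain, age and sex of the mice nor the deleted part of the EphA2 gene.

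Glucose enters cells through transporters such as GLUT1, is trapped by hexokinase, and is split and oxidised to pyruvate by the later enzymes of glycolysis. Pyruvate then becomes lactate, which monocarboxylate transporters carry across the membrane, or enters the citric acid cycle through the pyruvate dehydrogenase complex, which its own kinases inhibit. Side branches lead to the pentose phosphate pathway, which makes NADPH, and to glycogen. The corneal epithelium is known to store glycogen and to rely strongly on glycolysis.

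The libraries held 15308013 to 27586942 counts, and the 20 most abundant genes took 17.2% to 17.6% of them. The sample titles carried numbers in a lower range (wild type 1, wild type 2 and labelled null 1), and a higher range (wild type 3, labelled null 2 and labelled null 3). What the numbers stand for is not given, and wild type 1 and 2 shared a number, as did labelled null 2 and 3. Each title also carried a letter, N, R or B, which differed between libraries that shared a number and was not used here. Whether libraries with a shared number came from 1 animal is not stated, so p-values measure only the spread between these libraries, which may be technical. Krt12, the keratin that defines this epithelium, stood at 13064 to 16025 CPM (counts per 1000000 counts of a library). Epha2 itself was not lower in the libraries labelled null. In CPM, wild type 1, 2 and 3 held 298, 253 and 563, and labelled null 1, 2 and 3 held 285, 653 and 578. The fitted log2 fold change was 0.44 ± 0.39 (SE; adjusted p = 0.9996, edgeR quasi-likelihood test), and 0.09 ± 0.11 with title range in the fit. Higher over lower title numbers, with genotype in the fit, gave 1.07 ± 0.11 for Epha2 (adjusted p = 0.00174, edgeR). The 2 title ranges did not overlap. Without knowledge of the deleted part, these counts do not check the label, and every genotype direction below rests on the labels.

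Per kilobase of exon, the scale on which genes can be compared with each other, Taldo1 (transaldolase of the pentose phosphate pathway) stood highest with a mean level of 183 ± 25.1 CPM per kilobase (SD, n = 6). Ldha, which encodes the lactate dehydrogenase subunit of anaerobic tissues, followed with 132 ± 9.02 CPM per kilobase. Aldoa, the aldolase of muscle and most tissues, had 119 ± 2.79 CPM per kilobase, and its 6 libraries lay within 1.06-fold of each other. The lowest Taldo1 library, 146 CPM per kilobase, was above the highest Ldha library, 145 CPM per kilobase, by less than the spread of either gene. The lowest Ldha library, 121 CPM per kilobase, was below the highest Aldoa library, 122 CPM per kilobase, so those neighbours overlapped. Pkm (pyruvate kinase) and Tpi1 (triosephosphate isomerase) came next with means of 67.6 and 58.5 CPM per kilobase, and their ranges of 59.7 to 82.7 and 47.8 to 64.9 overlapped. Pdha1, the catalytic subunit of pyruvate dehydrogenase, had 53.1 and the glucose transporter gene Slc2a1 40.6 CPM per kilobase.

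The middle of the order ran from Pgd, the pentose phosphate dehydrogenase (mean 32.9 CPM per kilobase), through Gpi1, the isomerase that follows hexokinase (28.1), to Hk1 (5.10). Between them, from high to low, stood Pfkm, Eno1, Pfkfb2, Pdk2, Pdhb, Aldoc, Pfkfb3, Pdk1, Dlat, Pfkl, Hk2, Ldhb and Gbe1, each overlapping its neighbours in that order over the 6 libraries. Pgd lay above Gpi1, and Gpi1 above Pfkm, in all 6 libraries without overlap. The lower end, separated from Hk1, held Pgk1 (2.92), Gys1 (1.95), Pgam1 (1.8005), Slc16a1 (1.56), Gapdh (1.502) and Pfkp (1.19). Slc16a3, which encodes the lactate exporter MCT4, was last and apart from Pfkp with 0.150 CPM per kilobase and 9 to 20 counts per library. Taldo1, Ldha, Aldoa, Pkm and Tpi1 kept ranks 1 to 5 when the length of the principal transcript replaced the length of all exons. Other ranks moved: Slc2a1 from 7 to 10, Pfkp from 29 to 25, and Hk1 from 23 to 19 while Hk2 went from 20 to 22, so that Hk1 then stood above Hk2.

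**Figure D1:**
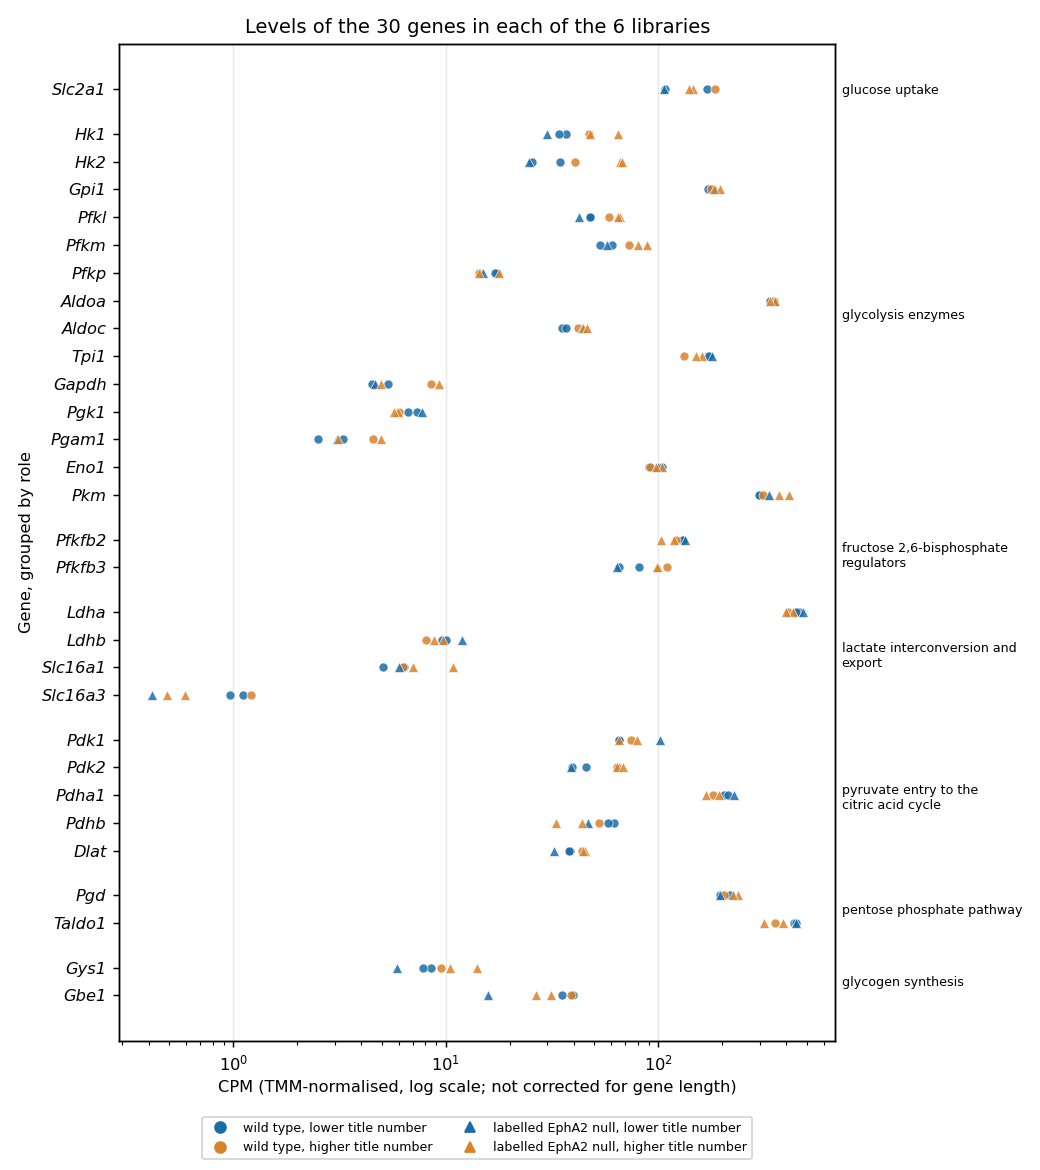
Each row is 1 gene and each symbol 1 library, with the TMM-normalised CPM on a log axis; circles are wild type, triangles labelled EphA2 null, blue the lower and orange the higher title numbers. The genes span from 0.413 CPM (Slc16a3, labelled null 1) to 479 CPM (Ldha, labelled null 1), and in Hk2, Pdk2 and Pfkfb3 the orange symbols lie to the right of the blue ones.

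Gapdh, Pgk1 and Pgam1 stood low beside other enzymes in the same chain of reactions. Gapdh, glyceraldehyde phosphate dehydrogenase, was low throughout: wild type 1, 2 and 3 had 4.49, 5.36 and 8.51 CPM, and labelled null 1, 2 and 3 had 4.63, 4.97 and 9.30 CPM. Pgk1, phosphoglycerate kinase, ranged from 5.68 to 7.71 CPM and Pgam1, phosphoglycerate mutase, from 2.51 to 4.93 CPM. Aldoa, which acts just before them, ranged from 335 to 354 CPM. The transcripts of these genes, and of Eno1, also recur elsewhere in the genome. Of the overlapping 50-base stretches of the principal transcript, 82.5% for Gapdh, 72.2% for Eno1 (enolase), 68.0% for Pgk1 and 41.5% for Pgam1 were also present, letter for letter, in the transcripts of other annotated genes. For Gapdh these were 222 other genes, of which 213 are annotated as pseudogenes and 7 have a row in the count table.

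The following stretch of Gapdh was picked as an extreme case. Coding stretches within 1 exon were compared. Any stretch with a match to a gene on 1 particular chromosome, not that of Gapdh, was left out, whatever else it matched. Among the stretches kept, this one had matches in the most other genes. It lies at chr6:125162898-125162947 on the minus strand of GRCm38, in the coding part of exon 4 of 7, and occurs unchanged in 84 other genes, 80 of them pseudogenes. It is written 5′ to 3′ along the transcript.
Gapdh: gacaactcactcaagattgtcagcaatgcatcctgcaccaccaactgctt

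How the deposited counting treated reads with several matches is not given in the sources used here, and its part in the low levels was not tested. The levels of Gapdh, Eno1, Pgk1 and Pgam1, and their fold changes, are therefore uncertain. Smaller shares applied to Pkm (30.5%), Pdhb (30.3%), Ldhb (27.0%), Gpi1 (19.6%), Ldha (17.1%), Aldoa (13.9%) and Taldo1 (12.4%). Of the other 19 genes, 15 had no shared stretch and 4 had at most 7.51%. Eno1 shared nearly as much as Gapdh and had 18.2 CPM per kilobase. Its stretches recurred in 9 other genes, those of Gapdh in 222, of Pgk1 in 5 and of Pgam1 in 4. How share and level relate was not tested. Exons of 12 of the 30 genes also overlapped exons of another annotated gene, the longest overlap with a gene on the opposite strand that has a row of its own being 748 bases of Pfkp with Pitrm1. Whether the counting used strand is not given.

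**Figure D2:**
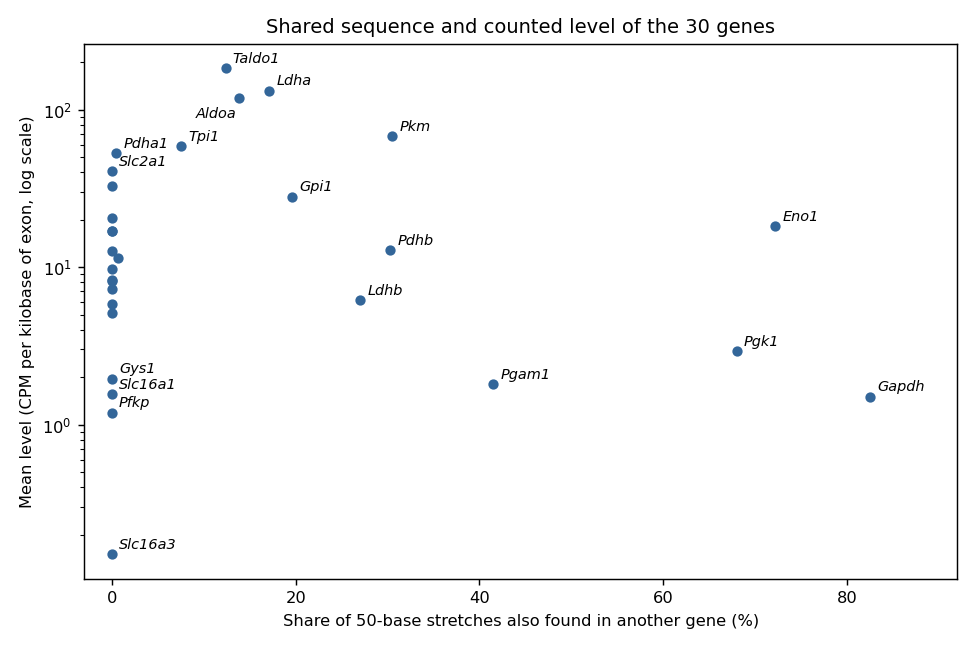
Each point is 1 of the 30 genes; the x axis gives the percentage of 50-base stretches of its principal transcript that also occur in another annotated gene, the y axis its mean CPM per kilobase of exon over 6 libraries on a log scale. Gapdh, Pgk1 and Pgam1 lie low at shares of 41.5% to 82.5%, Eno1 lies higher at 72.2%, and Slc16a3 lies lowest with no shared stretch.

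The first comparison asked which of these genes differed between the libraries labelled EphA2 null and the wild type libraries. None of the 30 was called at an adjusted p under 0.05 by edgeR, where 1 of the 12847 tested genes was called (0.00778%), and DESeq2 and limma voom called none of the 30 either. At an unadjusted p under 0.05, 3 of the 30 were lower in the libraries labelled null and none was higher, beside 1.18% of all tested genes in either direction. The 3 were Slc16a3, Pdhb and Gbe1, in 3 different branches: lactate export, pyruvate entry and glycogen. The count was 1 without wild type 1, without wild type 2, without labelled null 3 or with libraries of the same title number summed, 2 without wild type 3, and 9 without labelled null 1. Over all genes, an unadjusted p under 0.05 was reached by 929 of 13024 without labelled null 1 and by 308 of 13048 without wild type 3. In the other settings named it was reached by 53 to 104 genes, and in the main fit by 152 of 12847. In the main fit all 3 genes had an adjusted p of 0.9996 (edgeR). The median log2 fold change of the 30 was 0.06, with 20 above and 10 below 0, and the median over all tested genes was 0.01.

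Slc16a3 (ENSMUSG00000025161, GRCm38 chr11:120948480-120960868, plus strand) had the smallest p of the list. Wild type 1, 2 and 3 had 0.965, 1.11 and 1.22 CPM, and labelled null 1, 2 and 3 had 0.413, 0.590 and 0.485 CPM. Every library labelled null lay below every wild type library. The log2 fold change was -1.13 ± 0.31 (SE; unadjusted p = 0.00786, edgeR quasi-likelihood). The values rest on few reads, 20, 19 and 18 counts against 9, 12 and 13. The ratio of the summed counts, 34 against 57 and scaled to library size, was 0.456 with an exact binomial 95% interval of 0.289 to 0.710, which covers counting error only. Slc16a3 had log2 fold changes of -1.02 to -1.26 when each library was left out in turn.

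Pdhb, the beta subunit of the first enzyme of the pyruvate dehydrogenase complex (ENSMUSG00000021748, chr14:8165996-8173025, minus strand), was the next. Wild type 1, 2 and 3 had 62.0, 57.7 and 52.9 CPM of it, and labelled null 1, 2 and 3 had 46.8, 43.6 and 33.0 CPM, again without overlap. The log2 fold change was -0.48 ± 0.17 (SE; unadjusted p = 0.0239). Its partner subunits did not share this pattern in their levels: Pdha1 had a log2 fold change of -0.03 and Dlat, the acetyltransferase of the complex, 0.02.

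Gbe1, the glycogen branching enzyme (ENSMUSG00000022707, chr16:70313949-70569716, plus strand), was the third. Levels of 35.3, 39.6 and 38.7 CPM in the wild type libraries stood against 15.8, 31.2 and 26.4 CPM in labelled null 1, 2 and 3. The groups did not overlap, and labelled null 1 was far below the other 5 libraries. The log2 fold change was -0.63 ± 0.25 (SE; unadjusted p = 0.0375), and without labelled null 1 it was -0.40. Among libraries with lower title numbers the difference in mean log2 CPM was -1.24, and among those with higher numbers -0.43. Gys1, the glycogen synthase of tissues other than liver, had a log2 fold change of 0.24 ± 0.31.

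In all, 6 of the 30 genes had genotype groups that did not overlap, beside 3.73% of tested genes. Pkm, Gpi1 and Aldoc were above wild type in every library labelled null, with log2 fold changes of 0.29, 0.10 and 0.23, and Slc16a3, Pdhb and Gbe1 were below. Pkm, which makes pyruvate, had 302, 299 and 310 CPM in the wild type libraries against 333, 413 and 370 CPM in labelled null 1, 2 and 3. Its unadjusted p was 0.0580. Hk2 had the largest positive value, 0.66 ± 0.38, but its genotype groups overlapped, and with title range in the fit it had 0.22 ± 0.22. The lower title range held more wild type libraries and the higher range more labelled null, so genotype values without that term also carry title range differences.

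With the title range added to the fit, 5 of the 30 had an unadjusted p under 0.05, beside 3.87% of tested genes, and edgeR again called none of them. Gbe1 had a log2 fold change of -0.83 ± 0.19 in that fit, Slc16a3 -1.24 ± 0.35, Pdhb -0.41 ± 0.12, Slc2a1 -0.39 ± 0.16 and Pkm 0.24 ± 0.10. The median of the 30 was 0.0057 in that fit, and that of all tested genes -0.0007. DESeq2 with the same term, an alternative chosen after seeing the data, called 17 of 13754 genes (0.124%). Gbe1 was 1 of them, with a log2 fold change of -0.83 and an adjusted p of 0.0291. The same gene had adjusted p-values of 0.527 or more (edgeR, limma or DESeq2) in every other setting tried.

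**Figure D3:**
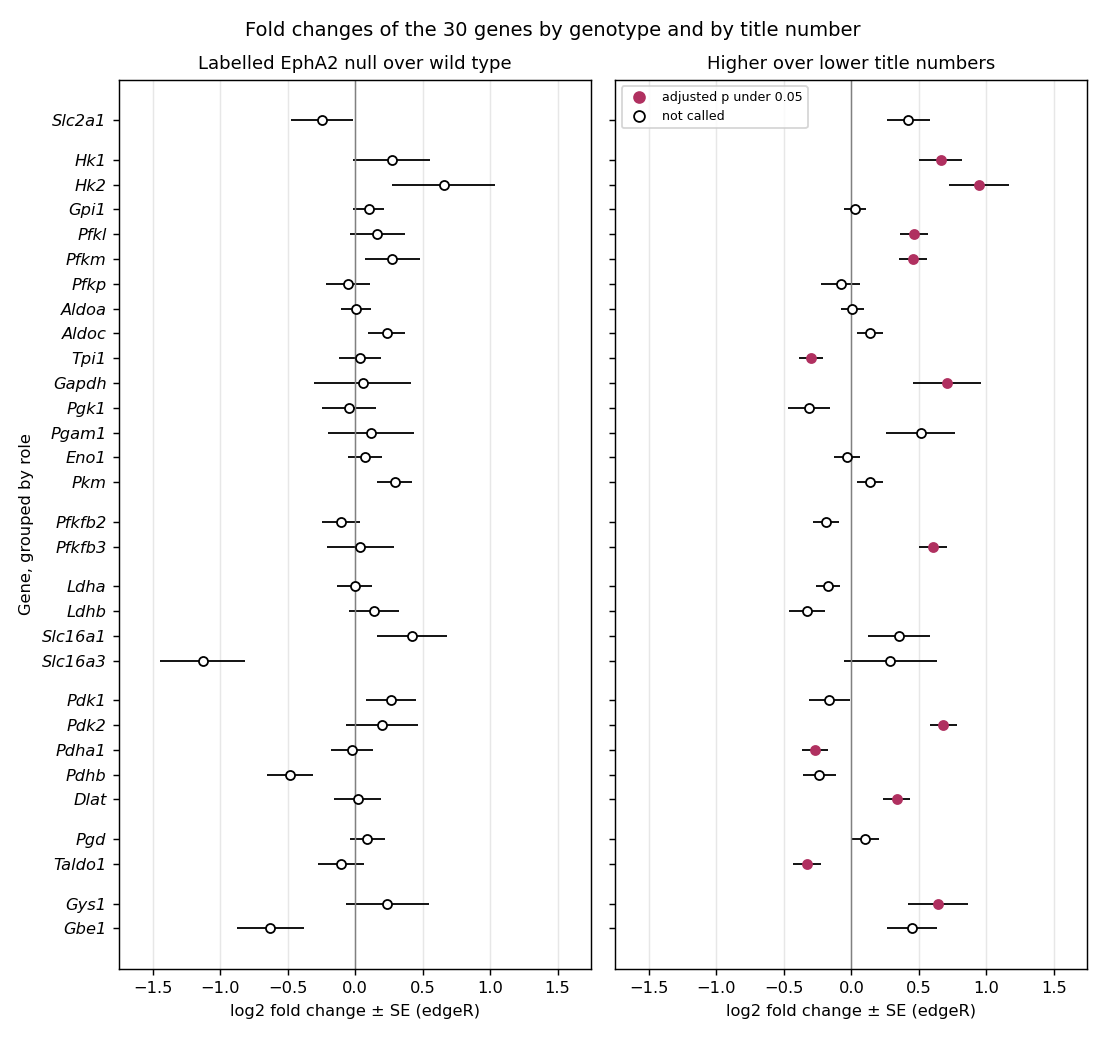
Each row is 1 gene; points are edgeR log2 fold changes and bars their standard errors, on the left labelled EphA2 null over wild type and on the right higher over lower title numbers with genotype in the fit. Filled points have an adjusted p under 0.05: none of 30 on the left and 12 of 30 on the right, 9 above and 3 below 0.

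The second comparison set the libraries with higher title numbers against those with lower ones, with genotype in the fit. Over all tested genes, 24.6% were higher and 20.1% lower at an adjusted p under 0.05, together 44.7%. Of the 30 genes, 9 were higher and 3 lower. The total of 12 is close to the share over all genes and is no result about the list. The median log2 fold change of the 30 was 0.14, and that of all tested genes -0.01. Title ranges did not overlap in 14 of the 30 genes, 8 higher and 6 lower, beside 59.0% of tested genes. With upper quartile factors in place of TMM, 2480 genes were higher and 3797 lower, the median of all genes was -0.13, and 6 of the 30 genes were higher and 8 lower. All 12 calls kept their direction in each of the 13 alternatives, but without labelled null 1, the only library labelled null with a lower number, 1 of the 12 (Pdk2) was still called. In that setting 1103 genes were called in all. Of the 12, 8 were still called without wild type 1, 6 without wild type 2, 8 without wild type 3 and 8 without labelled null 3.

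Markers of other cells moved with the title numbers as well. The summed level of 8 corneal epithelial markers was 52752 to 59418 CPM in the lower range and 67792 to 74929 CPM in the higher, and Aldh3a1 and Cdh1 were called higher. Of 8 tested leukocyte markers (12 listed), 7 were called lower, among them Ptprc at 1.40 to 1.93 CPM in the lower range and 0.246 to 0.270 CPM in the higher. The summed leukocyte level was 283 to 325 CPM against 280 to 323 CPM, most of it Itgam. Of 5 tested conjunctival and goblet cell markers (6 listed), Muc5ac and Agr2 were called lower, and the summed level was 4161 to 5496 CPM against 2840 to 5196 CPM. The stromal markers Kera and Lum had 0 counts in all libraries, and no tested stromal, erythrocyte or nerve marker was called. Only 1 of 8 listed stromal, 1 of 5 erythrocyte and 2 of 5 nerve markers were tested, so this says little about those cells. Slc4a11 of the corneal endothelial list and Pygm of the skeletal muscle list were called higher, and no marker on any list was called by genotype. The part of these cells in the results was not tested, and in bulk RNA fewer cells of a type and less RNA per cell cannot be told apart.

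The hexokinases, which trap glucose in the cell, both rose. Hk2, the insulin- and hypoxia-responsive hexokinase (ENSMUSG00000000628, chr6:82725025-82774454, minus strand), had 34.3, 25.5 and 24.6 CPM in wild type 1, wild type 2 and labelled null 1. It had 40.6, 65.8 and 67.7 CPM in wild type 3, labelled null 2 and labelled null 3. All libraries with higher numbers were above all with lower numbers, and the log2 fold change was 0.94 ± 0.22 (SE; adjusted p = 0.0110, edgeR). It was 0.44 without labelled null 1, where the call was lost, and 1.43 without wild type 3. Hk1, the hexokinase found in most tissues, had 36.9, 34.1 and 29.997 CPM in the lower range and 47.3, 47.7 and 64.9 CPM in the higher. Its groups did not overlap either, and its log2 fold change was 0.66 ± 0.16 (adjusted p = 0.0120, edgeR), or 0.41 and not called without labelled null 1.

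Pfkl and Pfkm, the liver and muscle subunits of phosphofructokinase, rose by log2 fold changes of 0.47 ± 0.10 and 0.45 ± 0.10 (adjusted p = 0.00851 and 0.00914, edgeR), and Pfkp, the platelet subunit, had -0.08 ± 0.15. Pfkfb3 encodes an enzyme that makes fructose 2,6-bisphosphate, the activator of phosphofructokinase. Its level was 81.0, 65.6 and 64.0 CPM in the lower range and 109.8, 100.3 and 98.5 CPM in the higher. The ranges did not overlap, and the log2 fold change was 0.61 ± 0.10 (adjusted p = 0.00341, edgeR). Its relative Pfkfb2 had lower levels in every library with a higher number, with a log2 fold change of -0.19 ± 0.09 that did not pass (adjusted p = 0.138, edgeR).

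In the later steps of glycolysis the values went both ways. Tpi1 fell, with 171.6, 173.8 and 178.7 CPM in wild type 1, wild type 2 and labelled null 1 and 131.5, 160.8 and 149.9 CPM in wild type 3, labelled null 2 and labelled null 3. Its log2 fold change was -0.30 ± 0.09 (adjusted p = 0.0266, edgeR). Gapdh had a log2 fold change of 0.71 ± 0.25 (adjusted p = 0.0479, edgeR), but labelled null 2, at 4.97 CPM, lay among the libraries with lower numbers, and 9 of 13 alternatives lost the call. Aldoa (0.01 ± 0.09), Gpi1 (0.03 ± 0.08), Eno1 (-0.03 ± 0.10), Aldoc (0.14 ± 0.09) and Pkm (0.14 ± 0.10) had small values. Pgk1 (-0.31 ± 0.15) and Pgam1 (0.51 ± 0.26) had larger ones with larger errors, and none of these 7 passed the test. Slc2a1, the only glucose transporter on this list, had 0.42 ± 0.16 (adjusted p = 0.0598, edgeR).

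None of the 4 lactate genes passed the test by title range. Ldha had -0.17 ± 0.09 and its partner Ldhb -0.33 ± 0.13. Slc16a1, the monocarboxylate transporter MCT1, had 0.35 ± 0.23 and Slc16a3 0.29 ± 0.34.

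At the entry to the citric acid cycle the kinase Pdk2, which inhibits pyruvate dehydrogenase, rose. It had 45.6, 39.3 and 38.8 CPM in wild type 1, wild type 2 and labelled null 1 and 64.3, 64.1 and 67.9 CPM in wild type 3, labelled null 2 and labelled null 3. The 2 sets of libraries were well apart, with a log2 fold change of 0.68 ± 0.10 (adjusted p = 0.00245, edgeR). Pdha1, the subunit that the kinase phosphorylates, fell, with 204, 214 and 228 CPM in the lower range and 182, 193 and 168 CPM in the higher. Its log2 fold change was -0.27 ± 0.09 (adjusted p = 0.0442, edgeR). Dlat rose by 0.34 ± 0.10 on the log2 scale (adjusted p = 0.0277, edgeR). Pdk1 had -0.16 ± 0.15 and Pdhb -0.24 ± 0.12, neither called.

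In the side branches Taldo1 fell and Gys1 rose. Taldo1 had 435, 447 and 445 CPM in wild type 1, wild type 2 and labelled null 1 and 353, 388 and 316 CPM in wild type 3, labelled null 2 and labelled null 3, without overlap. Its log2 fold change was -0.33 ± 0.10 (adjusted p = 0.0321, edgeR), while Pgd had 0.10 ± 0.10. Gys1 had 8.49, 7.81 and 5.87 CPM in the lower range and 9.45, 10.5 and 14.0 CPM in the higher. Its log2 fold change was 0.64 ± 0.22 (adjusted p = 0.0454, edgeR), and 6 of 13 alternatives lost that call. The value was 0.21 without labelled null 1 and 1.05 without wild type 3. Gbe1 had 0.45 ± 0.19 (adjusted p = 0.0797, edgeR).

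**Figure D4:**
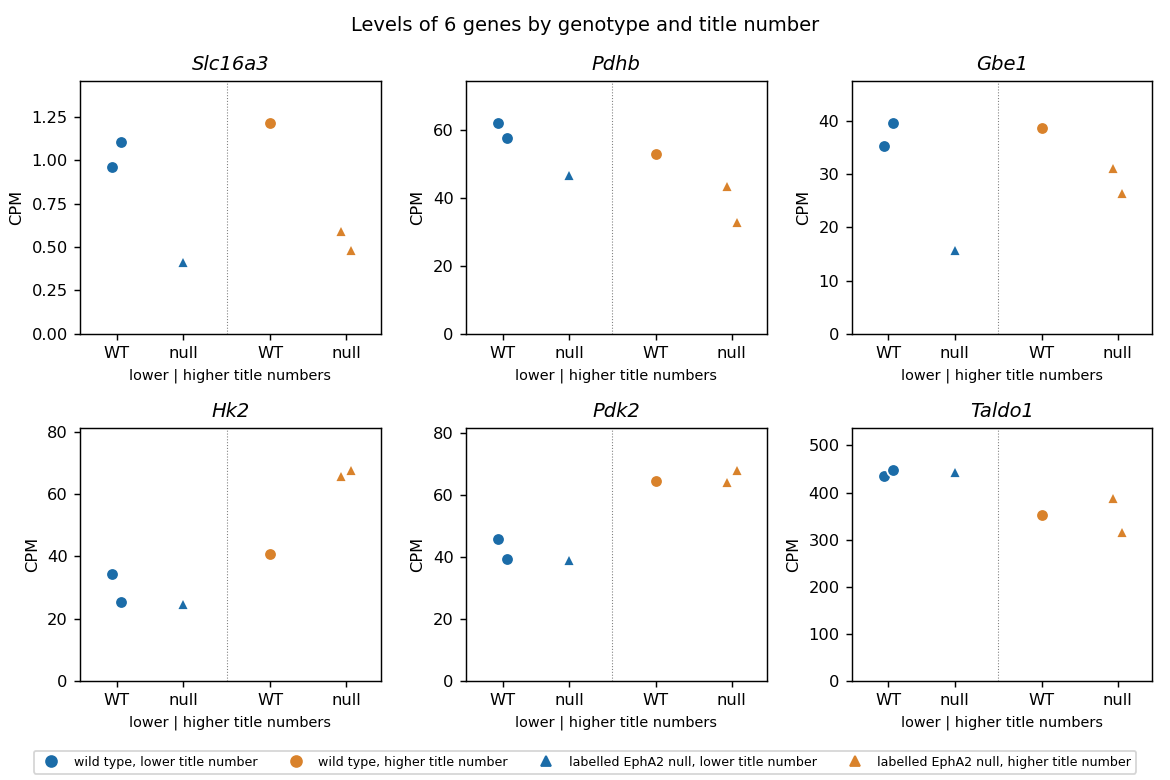
CPM of 6 genes in each library on linear axes that start at 0, with lower title numbers left and higher ones right of the dotted line; circles are wild type and triangles labelled EphA2 null. Slc16a3, Pdhb and Gbe1 are lower in the triangles on both sides of the line, Hk2 and Pdk2 are higher and Taldo1 is lower on the right.

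The calls by title range were also counted by shared sequence. Among the 19 genes with at most 10% of shared 50-base stretches, 8 rose and 2 fell, and their median log2 fold change was 0.35. The 15 of them with no shared stretch held 6 of the rises and none of the falls. Among the 11 genes with more, 1 rose (Gapdh) and 1 fell (Taldo1), and the median was -0.03. Over all tested genes, 24.6% rose and 20.1% fell. Counted in stretches of 75 bases, Gpi1, Ldha, Aldoa and Taldo1 shared 9.96%, 5.38%, 1.53% and 1.39%, which is also under 10%. The split therefore depends on the length of the stretches. It was made after the values were seen and carries no test.

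Whether the title range difference depended on genotype was asked with an interaction term. No gene was called over all 12847, and 4.71% had an unadjusted p under 0.05. Of the 30 genes 4 did, all with an adjusted p of 0.999 (edgeR). Hk2 was 0.46 higher on the log2 scale in the higher range among wild type libraries and 1.44 higher among those labelled null (unadjusted p = 0.00550, edgeR). Gbe1 had differences of 0.05 in wild type and 0.86 in the libraries labelled null (unadjusted p = 0.00940, edgeR), and Gys1 of 0.21 and 1.03 (unadjusted p = 0.0408, edgeR). Pdk1 went the other way, with 0.18 and -0.50 (unadjusted p = 0.0121, edgeR), and labelled null 1 at 102.0 CPM was its highest library. Each of these contrasts rests on 1 library labelled null with a lower number and 1 wild type library with a higher number.

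Shares of isoforms within a library do not depend on the scaling between libraries, and were computed per length in 7 families. With 3 against 3 libraries the exact two-sided permutation test cannot give a p under 0.1, and after Benjamini-Hochberg adjustment over 18 tests the smallest value was 0.3. Slc16a3 made up 11.2%, 15.4% and 13.9% of the summed Slc16a1 and Slc16a3 level in wild type 1, 2 and 3. In labelled null 1, 2 and 3 it made up 5.41%, 4.36% and 5.47%. The groups did not overlap (difference -8.40 percentage points, exact permutation p = 0.1). Slc16a1 made up the rest of the pair in every library, 84.6% to 95.6%.

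The Aldoc share of the aldolases was 8.54%, 8.63% and 9.68% in wild type and 10.02%, 10.05% and 10.97% in labelled null 1, 2 and 3, the rest being Aldoa. The Pfkm share of the phosphofructokinases was 68.2%, 65.5% and 68.8% in wild type and 69.8%, 70.3% and 69.0% in labelled null 1, 2 and 3. Neither pair of groups overlapped (exact permutation p = 0.1 for both), and the differences were 1.39 and 2.18 percentage points.

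By title range, 3 families had shares that did not overlap. Pfkfb3 was 37.4%, 32.5% and 31.5% of the Pfkfb2 and Pfkfb3 level in wild type 1, wild type 2 and labelled null 1. It was 46.4%, 48.4% and 44.2% in wild type 3, labelled null 2 and labelled null 3, 12.6 percentage points more on average (exact permutation p = 0.1). Pdk2 was 63.3%, 59.5% and 48.4% of the Pdk1 and Pdk2 level in the lower range and 68.1%, 70.7% and 67.9% in the higher, 11.8 points more (exact permutation p = 0.1). Pfkp was 4.88%, 5.22% and 4.54% of the phosphofructokinases in the lower range and 3.38%, 3.53% and 3.07% in the higher, 1.56 points less (exact permutation p = 0.1). The size of the Pfkp share depended on the length used: with the principal transcript it was 10.4% to 11.6% in the lower range and 7.08% to 8.17% in the higher, a difference of -3.33 points and still without overlap, and with uncorrected counts the difference was -4.07 points. The Hk2 share of the hexokinases, 51.6% to 66.3%, overlapped between title ranges although both genes rose. With the length of the principal transcript that share was 34.3% to 49.1%, so which hexokinase was the more abundant depended on the length used. Ldha was 95.01% to 96.03% of lactate dehydrogenase in all libraries, with no separation by genotype or title range.

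**Figure D5:**
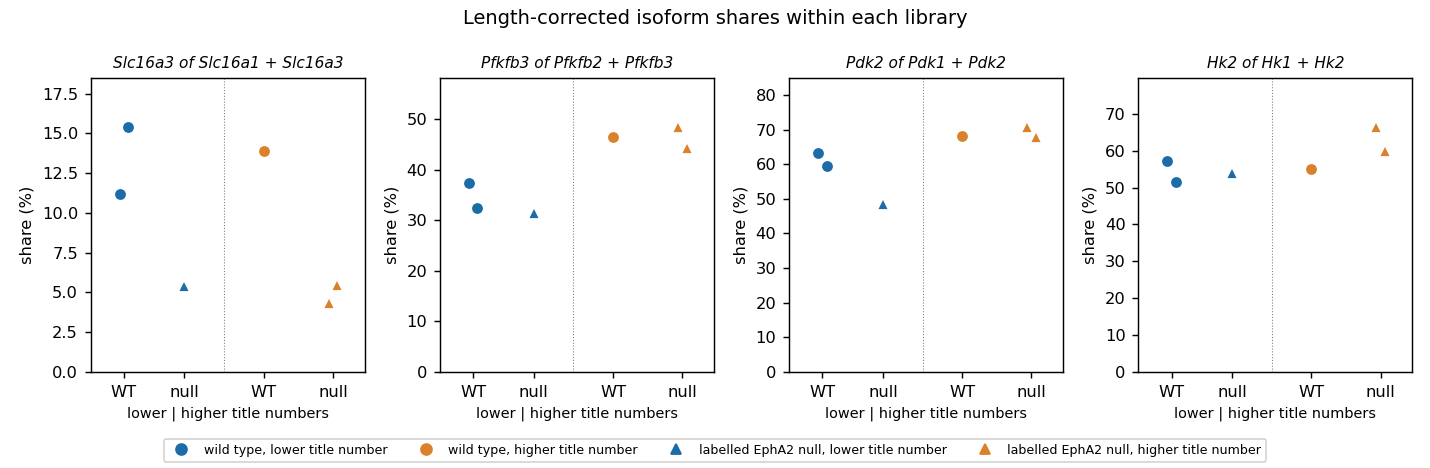
Length-corrected share of 1 isoform in its family, in percent, per library; lower title numbers are left and higher ones right of the dotted line, circles wild type and triangles labelled EphA2 null. The Slc16a3 share is 4.36% to 5.47% in the libraries labelled null and 11.2% to 15.4% in wild type; the Pfkfb3 and Pdk2 shares are higher on the right, and the Hk2 shares overlap.

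Another 112 genes of the same pathways were listed, and 93 of them were tested. None was called by genotype (edgeR), 2 had an unadjusted p under 0.05 (Fbp2 higher and P4ha2 lower), and their median log2 fold change was 0.04. By title range 23 were higher and 18 lower, 41 of 93 beside 44.7% over all genes. Without wild type 2, wild type 3 or labelled null 1, the 2 directions together came to 19, 22 and 8. Among the 19 genes not tested, Pklr, Fbp1 and Pck1, enzymes best known from liver and kidney, had 0 counts in all 6 libraries, which allows up to 3 counts in each. Pdk4, a starvation-responsive kinase of pyruvate dehydrogenase, had 1 to 10 counts per library.

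Around pyruvate dehydrogenase 1 of 8 tested genes rose and 5 fell, where 24.6% and 20.1% of all tested genes did; the list is small and was not tested against the rest. Dld, the shared E3 enzyme of the complex, fell with a log2 fold change of -0.48 ± 0.09 (adjusted p = 0.00486, edgeR). Its kinase Pdk3 and the phosphatase Pdp1, which act on the complex in opposite ways, had -0.68 ± 0.18 and -0.60 ± 0.14 (adjusted p = 0.0169 and 0.00925, edgeR). Of the 6 tested pentose phosphate genes 3 rose and 2 fell. H6pd, the dehydrogenase of the endoplasmic reticulum, had 0.73 ± 0.17, the isomerase gene Rpia 0.43 ± 0.11 and the epimerase gene Rpe -0.51 ± 0.09 (adjusted p = 0.00932, 0.0140 and 0.00397, edgeR).

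Of 22 tested glycogen genes 5 rose and 2 fell, where 24.6% and 20.1% of all tested genes did. This list and those that follow were not tested against the rest. Pygm, the muscle glycogen phosphorylase, had 0.868, 0.816 and 0.780 CPM in the lower range and 3.78, 5.26 and 2.02 CPM in the higher, a log2 fold change of 2.18 ± 0.42 (adjusted p = 0.00492, edgeR). The other 5 markers on the skeletal muscle list did not pass or were too low to test, and their part was not tested further. The glycogen-targeting phosphatase subunits Ppp1r3b and Ppp1r3e had -1.95 ± 0.53 and 0.68 ± 0.24 (adjusted p = 0.0189 and 0.0493, edgeR). Ppp1r3b had -0.98 without wild type 3, which lost the call, and -3.94 without labelled null 1, and Ppp1r3e lost its call in 9 of 13 alternatives. The other glucose transporters gave 1 fall among 6 tested, Slc2a12 with -0.49 ± 0.12 (adjusted p = 0.0128, edgeR). The other glycolysis isoforms gave 1 fall among 7, Gapdhs, the sperm form of Gapdh, with -1.09 ± 0.29 (adjusted p = 0.0179, edgeR).

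Of the 7 tested regulators of fructose bisphosphates and genes of gluconeogenesis 2 rose and 2 fell, beside 24.6% and 20.1% of all tested genes. Pcx, pyruvate carboxylase, had 0.67 ± 0.14, and Fbp2 and Pfkfb1, both at low levels of at most 2.11 CPM, had -1.09 ± 0.38 and -0.96 ± 0.34 (adjusted p = 0.00718, 0.0463 and 0.0492, edgeR). Fbp2 lost its call in 9 and Pfkfb1 in 8 of 13 alternatives, and Fbp2 had -0.57 with genotype left out of the fit. Emb, embigin, which accompanies monocarboxylate transporters to the membrane, was the 1 fall among 5 other lactate genes, with 80.0, 75.4 and 81.9 CPM in the lower range and 40.2, 45.3 and 37.2 CPM in the higher. Its log2 fold change was -0.97 ± 0.10 (adjusted p = 0.00174, edgeR), and Bsg, basigin, the other such companion, had -0.01 ± 0.09.

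Hypoxia-inducible factors are known regulators of many glycolysis genes. Of 22 HIF factors, prolyl hydroxylases and non-glycolytic HIF targets, 9 rose and 2 fell, where 24.6% and 20.1% of all tested genes did. Both directions together were near the 44.7% called over all tested genes, and the split by direction was not tested. Epas1, which encodes HIF-2α, had 540, 449 and 305 CPM in the lower range and 812, 699 and 861 CPM in the higher, a log2 fold change of 1.03 ± 0.17 (adjusted p = 0.00311, edgeR). Hif1a had 0.11 ± 0.11 and was not called. Egln1, the main oxygen-sensing prolyl hydroxylase, rose by 0.81 ± 0.14, while Car12, a membrane carbonic anhydrase, fell with -1.49 ± 0.18 (adjusted p = 0.00371 and 0.00178, edgeR). Of 10 glucose-sensing and Myc-family regulators 3 rose and 2 fell. Txnip, a glucose-induced inhibitor of glucose uptake, had 503, 521 and 557 CPM in the lower range and 282, 281 and 224 CPM in the higher, a log2 fold change of -1.003 ± 0.12 (adjusted p = 0.00178, edgeR). Mlxip, a glucose-sensing transcription factor, had 0.81 ± 0.10 and Mycl 0.43 ± 0.11 (adjusted p = 0.00186 and 0.0153, edgeR).

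Promoter sequences of all 30 genes were present in the RefSeq table for GRCm38.p6, in 47 windows from 250 bases before to 50 bases after a start. The letters ACGTG and GCGTG, the core of the site that HIF factors are known to bind, were searched on both strands. CACGTG, the E-box read by Myc and glucose-sensing factors, holds ACGTG on both strands, so its matches are also core matches. A core match stood in at least 1 window of 25 of the 30 genes (83.3%), of 46.7% of all 27025 genes in the table and of 67.2% of the 10146 tested genes in it. It stood in 7 of the 9 genes that rose by title range, in 2 of the 3 that fell and in 16 of the 18 not called. Per window of equal length, 74.5% of the 47 and 43.8% of all 32851 windows held a core match, and 12.8% and 7.15% held CACGTG. These windows were not limited to tested genes, for which the share by gene was the higher one. By gene, CACGTG stood in 6 of the 30, in 2187 of all 27025 and in 1178 of the 10146 tested genes. A match is a description of letters and not a bound site.

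The upstream 250 bases of the 2 genes with the largest rises and no shared transcript sequence, Hk2 and Pdk2, and of the gene with the largest fall, Taldo1, are shown to set these matches in their surroundings. They are written 5′ to 3′ in the direction of transcription, with core matches on either strand in capitals. In GRCm38.p6 they lie at chr6:82774455-82774704 on the minus strand, chr11:95041372-95041621 on the minus strand (1 of 2 Pdk2 windows) and chr7:141391910-141392159 on the plus strand.
Hk2: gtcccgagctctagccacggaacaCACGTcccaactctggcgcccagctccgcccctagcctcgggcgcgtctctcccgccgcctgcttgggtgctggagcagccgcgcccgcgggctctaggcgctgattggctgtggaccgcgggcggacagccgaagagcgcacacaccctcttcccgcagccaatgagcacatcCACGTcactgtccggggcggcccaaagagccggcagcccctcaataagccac
Pdk2: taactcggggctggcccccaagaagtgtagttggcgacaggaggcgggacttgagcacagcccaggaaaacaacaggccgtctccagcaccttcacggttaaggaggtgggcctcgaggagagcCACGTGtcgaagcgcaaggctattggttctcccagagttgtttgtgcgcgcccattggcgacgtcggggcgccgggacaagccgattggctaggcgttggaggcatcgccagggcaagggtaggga
Taldo1: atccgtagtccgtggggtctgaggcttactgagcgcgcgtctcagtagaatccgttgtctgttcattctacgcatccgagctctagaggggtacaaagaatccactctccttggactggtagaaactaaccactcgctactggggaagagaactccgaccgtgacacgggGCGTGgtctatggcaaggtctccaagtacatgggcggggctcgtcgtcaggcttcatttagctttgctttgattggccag

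Hk2 held 2 separate core matches, Pdk2 held 1 CACGTG, which counts as a core match on each strand, and Taldo1 held 1 GCGTG here and another core match in the 50 bases after its start. The promoters of Tpi1, Dlat, Gys1, Gpi1 and Gbe1 held none in this window, and 2 of these rose by title range (Dlat and Gys1) while 1 fell (Tpi1).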

How the data were processed

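Total RNA of corneal epithelial sheets was measured in 6 libraries, grouped by the genotype label. The values are whole-number counts per gene, deposited by the authors in 1 table; the sources used here do not give the aligner, counting tool, genome build or strand setting. Gene names and coordinates came from GENCODE M21 (GRCm38), which held 24991 of the 25006 identifiers. In edgeR 4.0.16 (R 4.3.3), counts were filtered with filterByExpr, scaled by TMM and tested with the quasi-likelihood test, with Benjamini-Hochberg adjustment over 12847 genes; the SE is the absolute log2 fold change divided by the root of F. Levels per kilobase used the union of exons, and shared sequence was counted as exact stretches of 50 bases of the principal transcript. Title range was tested with genotype in the fit. The edgeR fit with genotype and title range as terms was tried on simulated counts with known changes. The genotype fit without title range was not tried in this way, nor were the other steps. DESeq2 1.42.0, limma 3.58.1 (voom), other scalings and filters, summed libraries and each library left out were alternatives. The members and gene lists were chosen with earlier results of these data known. Named in full were the 3 smallest p-values by genotype, up to 6 called rises and falls by title range, isoforms whose shares did not overlap, and up to 3 called genes per pathway list. P4ha2, Bsg, Hif1a, Pdk4 and the genes with 0 counts were named after their values were seen.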

Additional observations from a re-analysis of the deposited data

How the results depend on the processing

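By genotype, 1 gene was called in all settings but 3: DESeq2 called 5, DESeq2 with title range as a term 17 and the sum of libraries that share a title number 0. None of the 30 genes was called except 1 (Gbe1) with DESeq2 and that term. No called direction reversed. By title range, 1103 to 5803 genes were called when each library was left out, with 3549 without wild type 2, 3702 without wild type 3 and 1103 without labelled null 1. The count of members that rose then ranged from 1 to 10, and of those that fell from 0 to 4 (1 without wild type 1, 0 without wild type 2, 1 without wild type 3, 0 without labelled null 1). Other pathway genes called ranged from 8 to 43, with 8 without labelled null 1, 19 without wild type 2 and 22 without wild type 3. With upper quartile factors 8 members fell. The members' median log2 fold change by title range was 0.14; it was 0.0162 with upper quartile factors, 0.10 with title range alone, 0.35 for members with at most 10% shared sequence, and 0.0862 to 0.218 when each library was left out. The cause of these shifts was not tested, beyond the loss of 1 of 6 libraries. Without wild type 3 or labelled null 1, a title range holds libraries of 1 genotype only. Slc16a3 and Pygm rest on few counts. No paired analysis was possible because the replicate numbers were given in accession order and pair no libraries.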

Other observations

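Fbp2, a muscle fructose bisphosphatase, had the largest positive genotype value among the other pathway genes: wild type 1, 2 and 3 had 0.434, 0.350 and 0.203 CPM, and labelled null 1, 2 and 3 had 1.28, 0.640 and 0.523 CPM. The groups did not overlap, and the log2 fold change was 1.26 with an unadjusted p of 0.0383 (edgeR; adjusted p = 0.9996). P4ha2, a collagen prolyl hydroxylase, had 12.5, 10.1 and 10.4 CPM in the wild type libraries against 8.26, 6.64 and 8.10 CPM in labelled null 1, 2 and 3, again without overlap (log2 fold change -0.52, unadjusted p = 0.0206, adjusted p = 0.9996, edgeR).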
